A study of Mus musculus with 4 samples.

Results

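The early response genes of the EGR, NR4A and IER families and the phosphatase gene Dusp1 were examined in splenic cDC2 from wild-type (WT) mice and from mice lacking Id2 (Id2 KO), to set the levels of these genes in one group against the other. The 10 genes were taken as a list of symbols, namely Egr1, Egr2, Egr3, Nr4a1, Nr4a2, Nr4a3, Ier2, Ier3, Ier5 and Dusp1, out of 19938 genes named on the array. Each had 1 probe set annotated to its symbol alone, so no choice between probe sets arose, and all 10 lay above the level at which genes were tested. RNA from 4 samples was hybridised to Affymetrix arrays, 2 arrays from cDC2 of Zbtb46-GFP chimeric mice (WT) and 2 from cDC2 of Id2 KO Zbtb46-GFP chimeric mice. Every group therefore carried the Zbtb46-GFP reporter, a fluorescent marker of conventional dendritic cells, and every sample came from chimeras, in which blood cells develop from transplanted donor cells. No stimulus is named in the labels, and all spleens went through red cell lysis and flow sorting. Age, strain, the deleted part of Id2 and whether the arrays of a group came from separate mice are not stated in the sources used here. The p-values therefore reflect the spread of these 4 arrays alone, and that spread may be technical.

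Early response genes are transcribed within minutes of a signal, without need for new protein, and their transcripts and proteins are short-lived. The serum response factor SRF with its ternary complex partners binds CArG boxes, and CREB binds cyclic AMP response elements (CRE), in many of their promoters, downstream of the kinase ERK and of cyclic AMP and calcium signals. The EGR proteins are zinc-finger transcription factors, the NR4A proteins are orphan nuclear receptors, and Dusp1 encodes a phosphatase that switches off MAP kinases. In dendritic cells and other myeloid cells such genes respond to microbial products, adhesion and cytokines.

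The arrays had median intensities between 128 and 134. Id2 stood at log2 9.14 and 9.08 on the WT arrays and 8.71 and 8.97 on those labelled Id2 KO, and this difference of -0.27 did not pass (limma, adjusted p = 0.172). The probe set that stood for Id2 may lie outside the deletion and then checks nothing, so every direction below rests on the labels. Xist and Y-linked Kdm5d split the arrays the same way as genotype. Xist was at log2 11.96 on both WT arrays and at 6.67 and 6.68 in Id2 KO (difference -5.28). Kdm5d had means of 5.63 in WT and 8.29 in Id2 KO (difference 2.66). The WT arrays thus had the pattern of female cells and the Id2 KO arrays that of male cells. Sex and genotype therefore cannot be told apart for any gene below, autosomal genes included. The cDC2 genes Sirpa, Itgam, Cd4 and Irf4 lay above the test level on every array, whereas Clec10a had a mean below it. Of the cDC1 genes, Xcr1, Clec9a and Cadm1 had means below it, and Batf3, Irf8, Tlr3 and Itgae had means above it. Batf3 was at log2 10.67 on both WT arrays and at 10.66 and 10.79 in Id2 KO. Of 7 tested cDC2 genes, Itgam (log2 10.77 and 10.78 in WT, 10.06 and 9.49 in Id2 KO) and Cd4 (difference -0.84) fell, Esam (0.53) rose and 4 did not pass. Of 8 tested genes of conventional dendritic cells, Zbtb46, the gene of the reporter, fell by 1.02 (adjusted p = 0.000135), Ccr7 rose by 0.35 and 6 did not pass. Markers of other cells also differed between the groups. The summed intensity of 12 neutrophil genes was 17895 to 18537 in WT and 1516 to 2429 in Id2 KO (11 of 11 tested fell), with Ly6g below the test level in mean. That of 8 measured B cell genes was 1046 to 1052 and 2305 to 2651 (7 of 7 tested rose). That of 8 genes of Ly6C-low monocytes, cells that depend on Nr4a1, was 6582 to 6681 and 5534 to 5764 (1 rose, 1 fell, 6 did not pass). Among the other lists, 3 of 5 monocyte, 4 of 6 red pulp macrophage, 2 of 2 erythroid, 1 of 5 T cell and 1 of 4 cDC1 genes tested fell, and 4 of 7 pDC genes rose. Beside these counts, 5.53% of all tested genes rose and 2.52% fell. Some of these markers met the test level only through the group where they were higher, so the counts depend in part on the filter. In Id2 KO the means of Mmp8 (5.49), Slc40a1 (6.19), Chil3 (6.45), Cxcr2 and Mpo (6.52 each) and Zbtb46 (6.54) lay below it. In WT those of Cr2 (6.26) and Fcer2a (6.73) did. The part of these other cell types in the results below was not tested, and in sorted bulk RNA fewer cells of a type and less RNA per cell cannot be told apart.

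None of the 10 genes passed the test between the groups. With a threshold of 0.05 on the adjusted p, 0 of 10 rose and 0 of 10 fell in limma, while 8.04% of all 11963 tested genes were called. At an unadjusted p under 0.05 there were 2, Ier2 and Nr4a2, both lower in Id2 KO, beside 20.7% of all tested genes in either direction and 7.61% lower. The differences, given throughout as log2 intensity in Id2 KO minus WT, reached from -0.36 for Nr4a2 to 0.20 for Egr3, with a median of -0.08 beside 0.01 over all tested genes. Of the 10, 8 had a difference below 0, against 47.9% of all tested genes. Among these 8, Egr1 and Egr2 were at -0.01. With median-centred arrays 6 of the 10 were below 0, and with 1 array left out 5 (without Id2 KO replicate 2) to 9 (without Id2 KO replicate 1). The widest 95% interval bound of any of the 10, that of Nr4a2, corresponded to 1.55-fold. The groups did not overlap in 5 genes that were lower in Id2 KO (22.8% of all tested genes) and in 1 that was higher (27.9%).

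**Figure D1:**
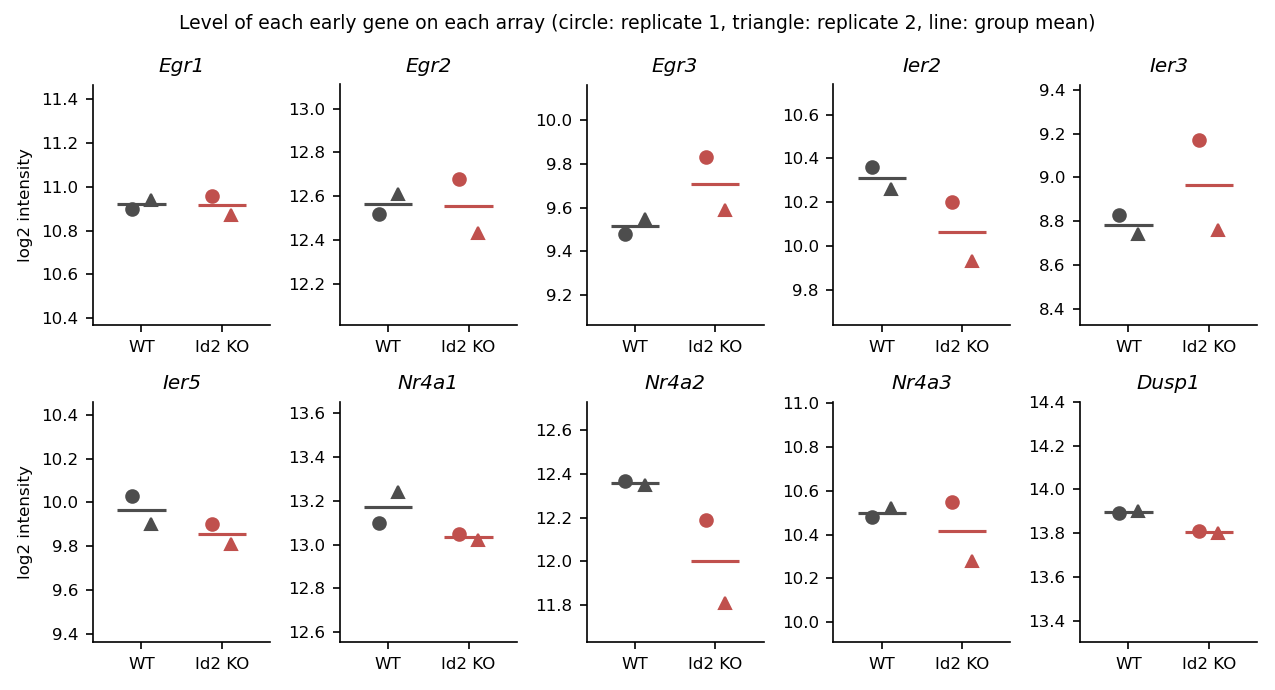
Log2 intensity of the 10 early genes on each of the 4 arrays, 1 panel per gene, each on its own axis of equal span. Grey marks are WT and red marks Id2 KO, circles replicate 1 and triangles replicate 2, and lines the group means; the red circle lies above the red triangle in every panel, from a gap of 0.01 in Dusp1 to 0.41 in Ier3.

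The EGR genes encode activators and repressors that share a zinc-finger DNA-binding region. Egr1, the founding member, was at log2 10.90 and 10.94 on the WT arrays and 10.96 and 10.87 on the Id2 KO arrays. The groups overlapped, and the Id2 KO arrays were the highest and the lowest of the 4. The difference was -0.01 (limma, 95% interval -0.19 to 0.18, adjusted p = 0.983). The wider bound of this unadjusted interval corresponded to 1.14-fold. With 2 arrays per group and a spread that may be technical, it does not exclude a larger change between mice. Egr2, a regulator of tolerance and differentiation in lymphoid and myeloid cells, was at 12.52 and 12.61 in WT and at 12.68 and 12.43 in Id2 KO. The Id2 KO arrays again enclosed the WT arrays, and the difference was -0.01 (-0.24 to 0.22, adjusted p = 0.97). Neither gene had a settled sign. Without Id2 KO replicate 2 the difference was 0.04 for Egr1 and 0.11 for Egr2, and without WT replicate 2 it was 0.02 and 0.03. Egr3, which shares many targets with Egr2, was at 9.48 and 9.55 in WT and at 9.83 and 9.59 in Id2 KO. Both Id2 KO arrays lay above both WT arrays, replicate 2 by little. The difference of 0.20 (-0.02 to 0.42) did not pass (adjusted p = 0.296) and ranged from 0.08 without Id2 KO replicate 1 to 0.32 without Id2 KO replicate 2.

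Promoter windows of RefSeq (GRCm38.p6, 250 bases before to 50 after a start site) were at hand for 7 of the 10 genes, in 11 windows. Egr1, Egr3 and Ier2 had no window and were not searched. Among these 7 genes a CArG box, the site bound by SRF, was found in Egr2 alone, in 4 of its 5 windows, beside 1.63% of all 32851 windows. Only its strict form was searched, a run of A or T between CC and GG, and forms with a mismatch were not. The stretch below is from chr10:67537787-67537816 on the plus strand, at positions -82 to -53 from a start site, with the box in capitals. It is shown because SRF is a main regulator of EGR genes, and 3 of the 4 windows share this box.
Egr2: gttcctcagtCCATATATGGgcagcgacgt

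The NR4A genes encode nuclear receptors whose activity is set mainly by how much protein is made. Nr4a1 (Nur77), needed for the survival of Ly6C-low monocytes, was at log2 13.10 and 13.24 on the WT arrays and 13.05 and 13.02 on the Id2 KO arrays. Both Id2 KO arrays were lower, the nearest by less than the gap between the WT arrays. The difference was -0.13 (-0.33 to 0.06, adjusted p = 0.437). Nr4a2 (Nurr1), also a factor of dopamine neurons, was at 12.37 and 12.35 in WT and at 12.19 and 11.81 in Id2 KO. The WT arrays lay close together, both Id2 KO arrays lay below them, and Id2 KO replicate 2 lay lowest. This was the largest difference of the 10, at -0.36 (-0.63 to -0.09; 1.28-fold lower), larger in absolute size than in 91.6% of all tested genes, and it did not pass (adjusted p = 0.122). Its size depended on which Id2 KO array was kept. Without Id2 KO replicate 1 it was -0.55 and passed (adjusted p = 0.00731), and without Id2 KO replicate 2 it was -0.17 (adjusted p = 0.402). Nr4a3 (Nor1), a relative with overlapping functions, was at 10.48 and 10.52 in WT and at 10.55 and 10.28 in Id2 KO. The groups overlapped, with a difference of -0.08 (-0.32 to 0.15, adjusted p = 0.715) that was 0.05 without Id2 KO replicate 2.

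The promoter windows of the NR4A genes shared a short motif. TGACG, the core of the CRE searched on both strands, was found 4 times in each of the 3 windows. It was in 7 of the 11 windows of the early genes, beside 20.8% of all windows. By gene it was in 5 of the 7 with a window, where Egr2 alone has 5 windows. The full element TGACGTCA was in none of the NR4A windows. The capitals below mark TGACG or its reverse complement in the part upstream of the start site. The stretches lie at chr15:101266603-101266820 (plus strand, Nr4a1), chr2:57124100-57124213 (minus strand, Nr4a2) and chr4:48045064-48045172 (plus strand, Nr4a3), and begin at positions -243, -210 and -241 from the start site.
Nr4a1: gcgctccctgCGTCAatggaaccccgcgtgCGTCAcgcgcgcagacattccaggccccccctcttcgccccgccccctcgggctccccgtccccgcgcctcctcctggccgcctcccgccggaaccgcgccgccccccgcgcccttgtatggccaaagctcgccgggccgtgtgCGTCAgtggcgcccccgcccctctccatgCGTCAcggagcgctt
Nr4a2: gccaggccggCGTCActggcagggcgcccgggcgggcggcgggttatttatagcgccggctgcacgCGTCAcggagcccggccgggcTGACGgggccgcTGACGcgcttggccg
Nr4a3: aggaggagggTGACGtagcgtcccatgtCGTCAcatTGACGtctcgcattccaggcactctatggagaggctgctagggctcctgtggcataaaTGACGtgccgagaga

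The IER genes are named for immediate early response and are not one structural family. Ier2, a nuclear protein gene related to Ier5, was at log2 10.36 and 10.26 on the WT arrays and 10.20 and 9.93 on the Id2 KO arrays. Both Id2 KO arrays were lower, and the difference of -0.25 (-0.48 to -0.01; 1.19-fold lower) did not pass (adjusted p = 0.218). It ranged from -0.38 without Id2 KO replicate 1 to -0.11 without Id2 KO replicate 2. Ier3 (IEX-1), a regulator of cell survival and ERK signalling, was at 8.83 and 8.74 in WT and at 9.17 and 8.76 in Id2 KO. Id2 KO replicate 1 stood above the other arrays, and replicate 2 lay among the WT values. The difference of 0.18 (-0.11 to 0.47, adjusted p = 0.496) was not shared by the Id2 KO arrays. Without Id2 KO replicate 2 it was 0.38 and passed (adjusted p = 0.042), and without Id2 KO replicate 1 it was -0.03 (adjusted p = 0.966). Ier5, a cofactor of the heat shock factor HSF1, was at 10.03 and 9.90 in WT and at 9.90 and 9.81 in Id2 KO, where 1 array of each group had nearly the same value. Its difference was -0.11 (-0.31 to 0.09, adjusted p = 0.54). The windows of Ier3 and Ier5 held none of the 6 motifs searched.

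Dusp1, the phosphatase that inactivates p38 and JNK, had the smallest gap of the 10 between the Id2 KO arrays. It was at log2 13.89 and 13.90 on the WT arrays and 13.81 and 13.80 on the Id2 KO arrays. The arrays of each group lay within 0.01 of each other and the groups did not overlap. The difference of -0.09 (-0.26 to 0.09) did not pass (adjusted p = 0.609). The limma fit does not use this narrow spread alone but draws it towards a prior SD of 0.0887 estimated over all tested genes. The full CRE, TGACGTCA, was found in Dusp1 as the only one of the 7 genes with a window, beside 1.79% of all windows. It stands in capitals in the stretch from chr17:26508598-26508673 (minus strand), which begins at position -201 from the start site and also holds a single TGACG.
Dusp1: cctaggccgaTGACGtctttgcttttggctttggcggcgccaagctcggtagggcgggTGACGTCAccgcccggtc

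**Figure D2:**
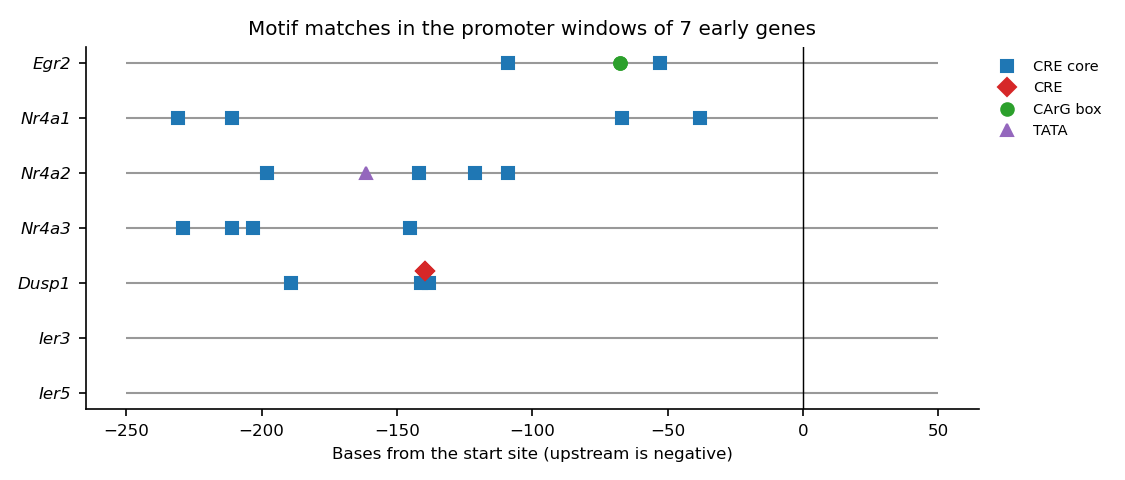
Positions of motif matches, in bases from the start site, in the promoter windows of the 7 genes with one (for Egr2, the window of the printed stretch). Squares are TGACG, the diamond TGACGTCA, the circle the CArG box and the triangle TATAAA; the 3 NR4A genes hold 4 squares each, and Ier3 and Ier5 hold no match.

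Of the other motifs, TATAAA was found in the window of Nr4a2 alone (13.6% of all windows). The EGR site GCGTGGGCG (0.612% of all windows) and AAAGGTCA, the element NBRE that NR4A monomers bind (1.51%), were in none of the 11. Such matches are letters in a window and no measure of binding, and TGACGTCA holds TGACG on each strand.

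**Figure D3:**
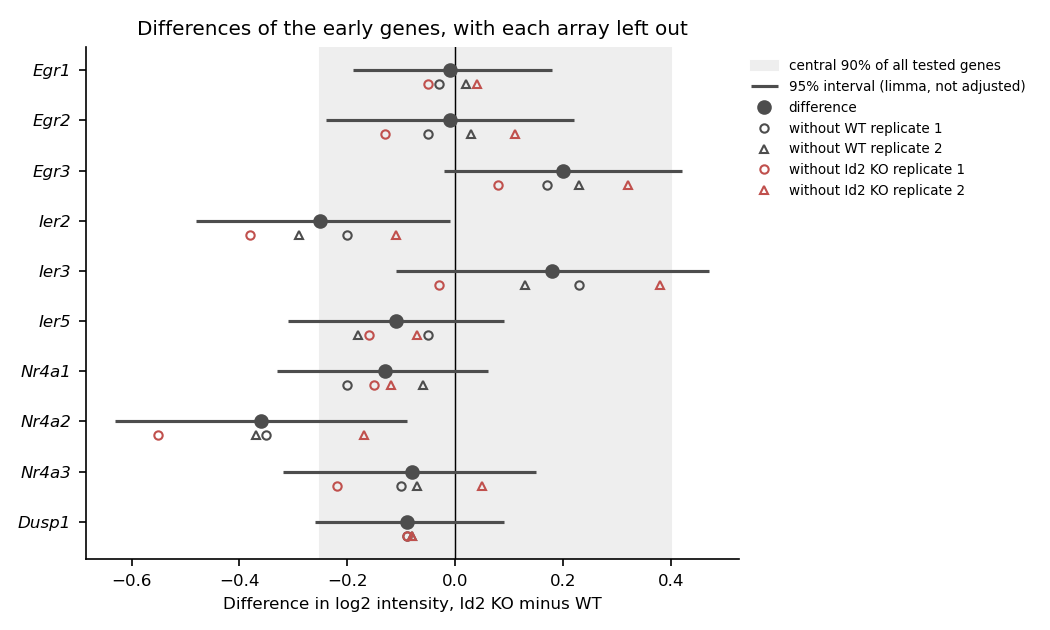
Difference in log2 intensity, Id2 KO minus WT, of the 10 early genes (filled points) with 95% limma intervals, and below each the difference with 1 array left out (open marks; red for an Id2 KO array). Grey shading spans the central 90% of all tested genes, -0.25 to 0.40; the open red marks lie farthest apart for Ier3, from -0.03 to 0.38, and for Nr4a2, from -0.55 to -0.17.

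The 10 genes differed between the arrays of the Id2 KO group in a common direction. All 10 were higher in Id2 KO replicate 1 than in replicate 2, against 55.4% of all tested genes, with a median gap of 0.24 beside 0.02. The gap was 0.41 for Ier3, 0.38 for Nr4a2, 0.27 for Nr4a3, 0.26 for Ier2, 0.25 for Egr2 and 0.24 for Egr3, and was below 0.11 for Egr1, Ier5, Nr4a1 and Dusp1. A gap as wide as the median of the 10 was seen in 11.3% of all tested genes. Between the WT arrays 4 of the 10 were higher in replicate 1 (43.3% of all tested genes), with a median absolute gap of 0.08 beside 0.09 over all tested genes. The members of a list chosen for joint regulation are not independent of each other, and replicate numbers have no order, so these are values of 4 libraries. Of the 11 tested neutrophil genes 3 were higher in Id2 KO replicate 1 and the rest lower, with a median gap of -0.55, and their part in the gap was not tested.

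**Figure D4:**
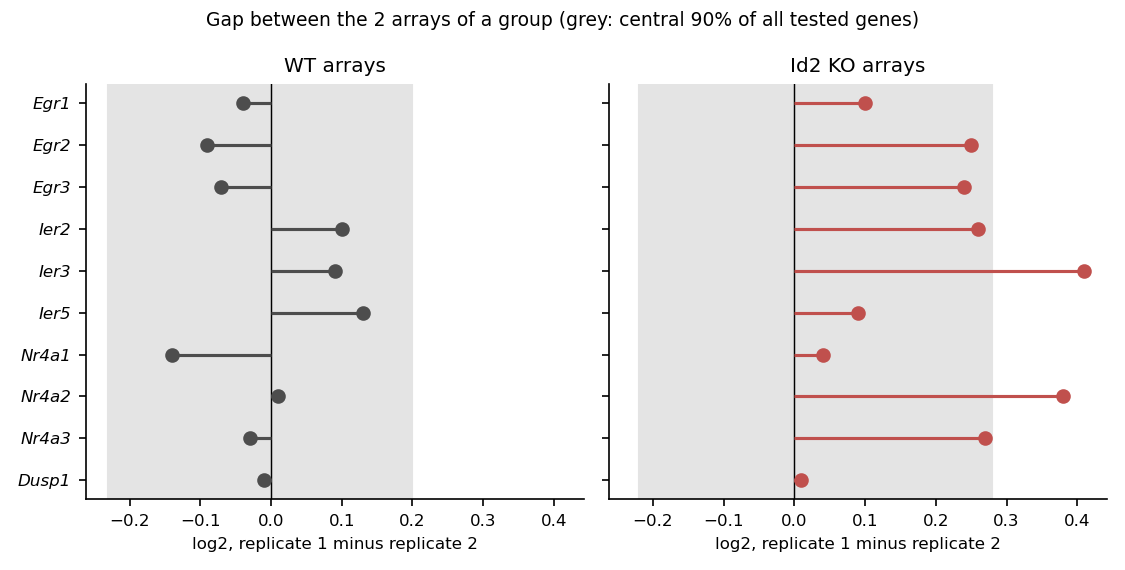
Gap between the arrays of each group (log2, replicate 1 minus replicate 2) for the 10 early genes, WT on the left and Id2 KO on the right. Grey shading spans the central 90% of all tested genes, -0.23 to 0.20 in WT and -0.22 to 0.28 in Id2 KO; all WT gaps lie inside it, and Ier3 and Nr4a2 lie outside it in Id2 KO.

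Genes that belong to the same responses were described from 7 related lists, which held 84 measured genes, 82 of them tested. Of these, 2 rose and 12 fell, beside 5.53% and 2.52% of all tested genes. The lists were not tested against the 10 early genes, and a pattern most like theirs was not sought, since none of the 10 passed.

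Most relatives and partners of the 10 genes did not pass. Of 5 tested, Nab2, a corepressor that binds EGR proteins and is itself an EGR target, rose from log2 8.88 ± 0.06 to 9.23 ± 0.09 (SD, n = 2 each; difference 0.35, adjusted p = 0.0401), and none fell. Its relative Nab1 at 0.16 (adjusted p = 0.335) and Ier5l at -0.13 did not pass. Among 15 genes of SRF, its partners, MEF2 and CREB factors, Crem, which encodes activators and the inducible repressor ICER of cyclic AMP signalling, fell from 8.41 ± 0.01 to 7.74 ± 0.32 (difference -0.67, adjusted p = 0.0157), and none rose. Its Id2 KO arrays were at 7.97 and 7.52. Of these 15 genes, 6 were higher in Id2 KO replicate 1 than in replicate 2, beside 55.4% of all tested genes. So were 10 of 15 tested other early transcription factors and 7 of 10 phosphatase and ERK feedback genes. The count was 10 of 17 for mRNA decay and growth control, 6 of 14 for early inflammatory genes, 3 of 6 for the ERK cascade and 2 of 5 for relatives. Some gaps were wider than in any of the 10 early genes, such as Plk2 (0.76), Dusp7 (0.7) and Fosl2 (0.55). Creb1 at 0.30 (adjusted p = 0.0742) and Mef2a at -0.19 did not pass. Of 6 tested genes of the ERK cascade none passed at the adjusted threshold, and 1 had an unadjusted p under 0.05. Map2k1 was at 0.20 and Nras at 0.14.

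Other transcription factors of the immediate early response were lower in part. Of 15 tested, 6 fell, none rose and 9 did not pass, with a median difference of -0.28 beside 0.01 over all tested genes. They were the AP-1 genes Fosl2 (-0.61), Atf3 (-0.39), Jun (-0.36) and Fosb (-0.35) and the Krüppel-like factor genes Klf2 (-0.43) and Klf4 (-0.41). Jun was at log2 12.85 and 12.97 in WT and at 12.52 and 12.58 in Id2 KO, with no overlap (adjusted p = 0.0333). Myc at 0.32 (adjusted p = 0.261) and Jund at -0.29 did not pass, nor did Fos, named here after its values were seen, at -0.21 (adjusted p = 0.183). Fosl1 had a mean over the 4 arrays below the test level and was not tested, at 7.11 and 6.84 in WT and at 6.45 and 6.57 in Id2 KO.

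Of 10 tested phosphatase and ERK feedback genes, Dusp10, a phosphatase of p38 and JNK like Dusp1, fell from 9.34 ± 0.01 to 8.73 ± 0.07 (SD, n = 2 each; difference -0.61, adjusted p = 0.00192), and none rose. The ERK phosphatase gene Dusp6 at -0.28 (adjusted p = 0.0674) and Spred1 at 0.28 (adjusted p = 0.0739) did not pass, and Spry2 had a mean below the test level. Of 17 genes of mRNA decay and growth control, 3 fell and none rose. The stress gene Gadd45a fell by 0.83, the small GTPase gene Rhob by 0.74 and the kinase gene Sgk1 by 0.47, while Plk2 at -0.57 (adjusted p = 0.14) and Trib1 at -0.28 did not pass. Of 14 early inflammatory genes, the cytokine gene Il1b fell from 13.13 ± 0.01 to 12.61 ± 0.08 (difference -0.52, adjusted p = 0.00499) and the adhesion gene Icam1 rose by 0.41 (adjusted p = 0.0399). Cd69 at -0.33 and Cxcl2 at -0.20 did not pass.

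**Figure D5:**
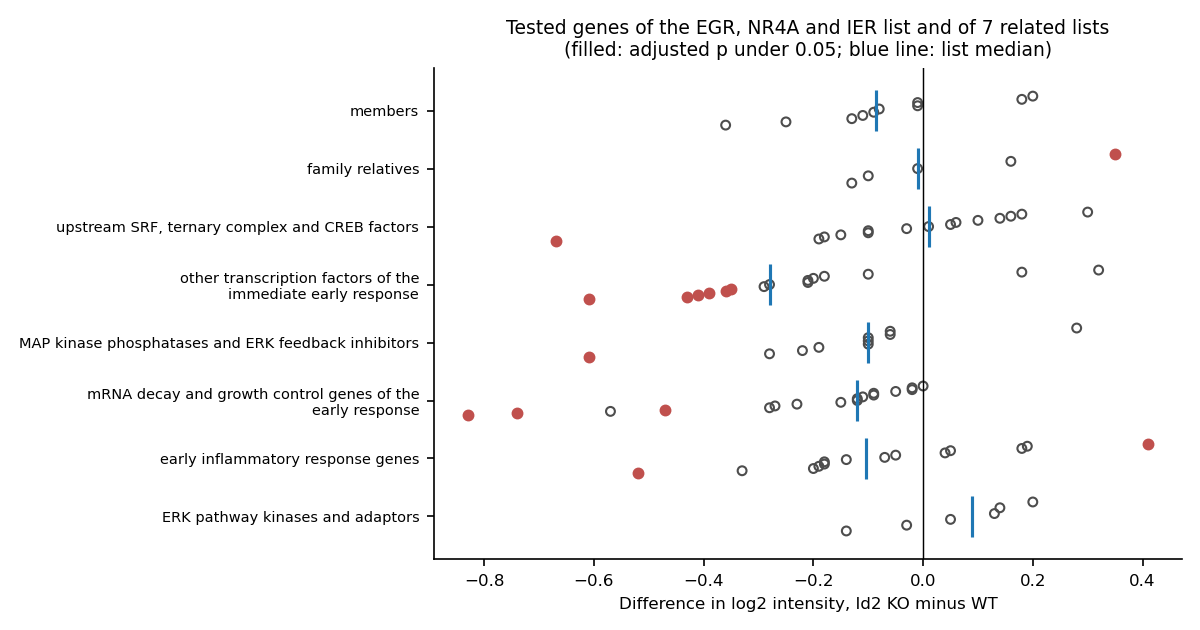
Difference in log2 intensity, Id2 KO minus WT, of each tested gene of the EGR, NR4A and IER list and of the 7 related lists (1 point per gene). Filled red points have an adjusted p under 0.05 and blue lines are list medians; the top row holds no filled point, and 6 filled points lie to the left in the list of other transcription factors, with its median at -0.28.

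The calls of Dusp10, Gadd45a, Rhob and Il1b held under all 13 alternatives, and the other 10 of the 14 did not. Without WT replicate 1, and likewise without WT replicate 2, Nab2, Crem, Icam1, Sgk1, Klf2, Klf4, Jun, Fosb, Fosl2 and Atf3 did not pass (adjusted p from 0.0783 to 0.292 and from 0.0579 to 0.223), in fits with fewer arrays. Their differences kept their sign, and without WT replicate 1 they were -0.66 for Crem, -0.47 for Sgk1, -0.44 for Klf2 and -0.42 for Jun. Without Id2 KO replicate 1 the calls of Atf3, Fosb and Jun were lost (0.0574 to 0.122), and without Id2 KO replicate 2 those of Fosb, Fosl2, Icam1, Klf4, Nab2 and Sgk1 (0.055 to 0.139). With median-centred arrays Fosb, Jun and Klf4 did not pass (0.0547 to 0.0582). With renewed quantile normalization Icam1 and Nab2 did not pass (0.0646 to 0.0873). With a replicate block Atf3, Fosb, Fosl2, Jun, Klf4 and Nab2 did not pass (0.0722 to 0.11), and without a filter on low values these 6 and Icam1 did not (0.0526 to 0.0799). Neutrophils, monocytes and macrophages also express Il1b, Klf4 and Atf3, and the neutrophil and B cell markers given above moved with the groups; their part in these calls was not tested.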

How the data were processed

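Each array has 1 deposited intensity per probe set, on a scale that appears linear (5.19 to 18624). Affymetrix Expression Console and RMA are named in the submitters' processing notes. RMA scales arrays to each other, so a change in total RNA per cell is largely removed. Scanner files and calls above background were not used here. The log2 of each intensity was taken without a pseudocount. Of 28853 probe sets, 21789 had 1 gene symbol in the platform annotation, and the brightest per gene stood for it. The test took genes whose mean exceeded the 40th percentile (log2 6.77), 11963 in all, with limma 3.58.1 in R 4.3.3 (lmFit, eBayes), Id2 KO minus WT, two-sided, Benjamini-Hochberg adjusted over all of them. Intervals are 95% and unadjusted. The procedure was tested on simulated data. The number of arrays, 4, limits the precision. Levels of different probe sets are not comparable and were not ranked.

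The 10 genes and all lists were chosen with earlier results of these data known. Named genes were the 10, up to 6 past the threshold per list, and the 2 largest others per list. Of the lists' genes, 14 were not named by a probe set with 1 symbol and were not analysed here, 6 of them of the ERK cascade. Promoter sequences are from RefSeq, GRCm38.p6, and no genome build was given for the arrays in the sources used here.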

Additional observations from a re-analysis of the deposited data

How the results depend on the processing

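Of 13 alternatives, 12 were planned. The 10 early genes had 0 calls in each direction under every alternative except those that left out an Id2 KO array, where the range was 0 to 1 higher (Ier3, without replicate 2) and 0 to 1 lower (Nr4a2, without replicate 1). With 1 array left in a group, that array is assumed to vary like the others. The sign turned for Egr1 and Egr2 with median-centred arrays (0.01 each), without WT replicate 2 (0.02 and 0.03) and without Id2 KO replicate 2 (0.04 and 0.11), for Nr4a3 without Id2 KO replicate 2 (0.05) and for Ier3 without Id2 KO replicate 1 (-0.03). Over the arrays left out in turn, Egr1 ranged from -0.05 to 0.04, Egr2 from -0.13 to 0.11, Nr4a3 from -0.22 to 0.05 and Ier3 from -0.03 to 0.38. Only the 0.38 of Ier3 passed among these.

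Over all tested genes, leaving out 1 array gave 304 to 837 higher (661 with all arrays; 304 without WT replicate 1) and 142 to 334 lower (301 with all; 155 without WT replicate 1 and 142 without WT replicate 2). Over the 7 related lists it gave 0 to 2 higher (0 without either WT array, 1 without Id2 KO replicate 2) and 4 to 13 lower (4 without either WT array). Related genes counted 7 lower and 0 higher without a filter, where 19938 genes were tested, and 0 higher with renewed quantile normalization. With a replicate block they counted 7 lower and 1 higher. The labels do not say whether arrays with the same replicate number were paired. The gaps of the groups correlated at -0.14 over tested genes, a value that cannot decide this. With the block, 479 genes were higher and 205 lower, and the block gave no call among the 10. With the crossed replicate block, added after seeing the data, 932 were higher and 448 lower, 4 and 15 of them among the related lists. Causes were not tested. No alternative gave a background level for dim probe sets.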
